A study of Homo sapiens with 4 samples.

Results

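Chromatin loops whose anchors start more than 500 kb and up to 1 Mb apart were examined in MDA-MB-231 cells, an established triple negative breast cancer (TNBC) cell line. They were selected by size alone from the loop list of each of 4 Hi-C libraries, which gave 8580 of the 77275 listed loops. Vehicle replicates 1 and 2 held 1870 and 2252 of them, and THZ1 replicates 1 and 2 held 2369 and 2089. Positions matched within 20 kb at both anchors were merged across the lists into 4096 distinct positions. Hi-C ligates and sequences DNA ends that lie close together in the nucleus, and the experiment asked how chromatin folding differed after inhibition of CDK7, the kinase of the general transcription factor TFIIH. Wild-type cells received DMSO (vehicle) or 75 nM THZ1, a covalent inhibitor of CDK7 that also binds related transcriptional kinases, and were taken at 48 h. The series calls the pair of libraries in each condition technical replicates, so all comparisons measure the spread between those libraries and may leave out variation between cultures. The labels name no transgene or added allele in any library.

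Many long loops form when the cohesin ring extrudes chromatin until it meets CTCF, a zinc finger protein that binds DNA with a direction. Anchors that stop cohesin from opposite sides therefore tend to carry CTCF sites that point toward each other. Other long contacts join promoters with distant regulatory elements, and the condensin complexes, known for compacting mitotic chromosomes, also extrude loops.

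The loops that carry both inward-pointing sites show what such a loop looks like in sequence. A core of 12 letters was searched on both strands (CC, any letter, C or G, C or T, AG, A or G, G or T, and GGC, in that order), and a motif match is a description of the letters, not a measured binding site. Among loops listed with identical anchors in all 4 libraries, the 4 with inward-pointing cores and the highest observed over expected contacts were taken, with 1 chromosome left out. Each line below gives 30 bases of GRCh37 read 5′ to 3′ on the strand of the motif, with the core in capitals. The cores of the first anchors lay on the forward strand and those of the second anchors on the reverse strand.
GALNT17 loop, first anchor (chr7:70322093-70322104): gaactctggCCACCAGGGGGCgctctgcac
GALNT17 loop, second anchor (chr7:71201124-71201135): gccttttgcCCACTAGATGGCactgctgca
RORA loop, first anchor (chr15:61455630-61455641): taaaggcctCCTCTAGAGGGCaggacatgt
RORA loop, second anchor (chr15:62127879-62127890): tctgatcttCCACTAGAGGGCgcccagcca
SDCCAG8 loop, first anchor (chr1:243507431-243507442): tctatatgaCCTCTAGGGGGCaccaaaaga
SDCCAG8 loop, second anchor (chr1:244436457-244436468): ttccttgcaCCAGTAGAGGGCtgtagttcc
ZNF83 to ZNF525 loop, first anchor (chr19:53193857-53193868): ggtttagaaCCGGCAGAGGGCggggccggg
ZNF83 to ZNF525 loop, second anchor (chr19:53868844-53868855): cctttagtaCCGGCAGAGGGCggggcgggg

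Neither anchor of the GALNT17 loop overlapped a protein-coding gene, and GALNT17, a member of the GalNAc-transferase family, started between them. The RORA loop began in an intron of RORA, a nuclear receptor gene, and the SDCCAG8 loop began at an exon of SDCCAG8, a centrosomal protein gene, and enclosed the start of ZBTB18, a transcriptional repressor gene. Both anchors of the chromosome 19 loop lay at promoters of zinc finger paralogues. There 26 of the 30 bases shown were the same at both ends, against 13, 14 and 15 in the other pairs. Reads from near-identical copies can be assigned to the wrong copy, and whether this touched the ZNF83 to ZNF525 contact was not tested.

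The loops over 500 kb to 1 Mb did not differ in number beyond the spread between libraries. The mean of the vehicle libraries was 2061 ± 270.1 (SD, n = 2) and that of the THZ1 libraries 2229 ± 198 (SD, n = 2), a log2 ratio of 0.11 with an SD of 0.23, and the groups overlapped (exact two-sided permutation test, p = 0.667). The SD beside a log2 ratio is the square root of the summed variances of the log2 values in the 2 groups. It describes the spread of single libraries, not that of a ratio of means, and the spread of a difference was formed likewise. With 2 libraries in each group, the smallest p this test can give is 0.33, so no comparison of library values here could pass 0.05. As a share of all loops, however, they made up 9.0% (95% Wilson interval 8.62 to 9.40) and 9.30% (8.94 to 9.67) of the vehicle lists and 13.8% (13.2 to 14.3) and 13.9% (13.3 to 14.4) of the THZ1 lists (exact permutation p = 0.33). The groups did not overlap in that share, whose denominator fell from 20768 and 24219 loops to 17222 and 15066. The Wilson intervals here and below cover counting error only.

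Within these sizes, the ratio of THZ1 to vehicle numbers ran higher toward the longer loops. From 500 to 600 kb the vehicle libraries listed 703 and 859 loops and the THZ1 libraries 814 and 732, a log2 ratio of -0.01. From 900 kb to 1 Mb they listed 156 and 206 against 237 and 213, a log2 ratio of 0.31 with an SD of 0.30. The ratios of the size steps between them were 0.11, 0.19 and 0.23. Only the loops from 800 kb upward had both THZ1 libraries above both vehicle libraries. The neighbouring loops of over 200 to 500 kb and of over 1 to 10 Mb had log2 ratios of -0.23 and 0.42. At the lower limit the numbers ran on without a step: 435 and 538 against 494 and 434 loops were over 450 to 500 kb, and 400 and 472 against 442 and 388 were over 500 to 550 kb.

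HiCCUPS called each loop at anchors of 5, 10 or 25 kb. This is the width of the listed anchor, not a measured breadth of the contact. Loops with 25 kb anchors came to 664 and 767 in the vehicle lists and 894 and 864 in the THZ1 lists, a log2 ratio of 0.30 with an SD of 0.15, without overlap of the groups. The 10 kb loops (730 and 824 against 797 and 681) and the 5 kb loops (476 and 661 against 678 and 544) overlapped between the conditions. Across all widths, a loop held a median of 22 contacts in each vehicle library and 27 and 28 in the THZ1 libraries. The contacts expected from the surrounding donut were also higher in the THZ1 lists, with medians of 3.38 and 3.45 in the vehicle lists and 5.01 and 5.43 in the THZ1 lists. Both kinds of median pool the widths, and loops with 25 kb anchors were more numerous in the THZ1 lists. Medians within a width are not given here. The study gives a range of reads per sample, but neither it nor the lists tie a depth to a library. The observed contacts of these loops summed to 48489, 59914, 77562 and 70196 in the order above, sums that move with the number of loops called.

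**Figure D1:**
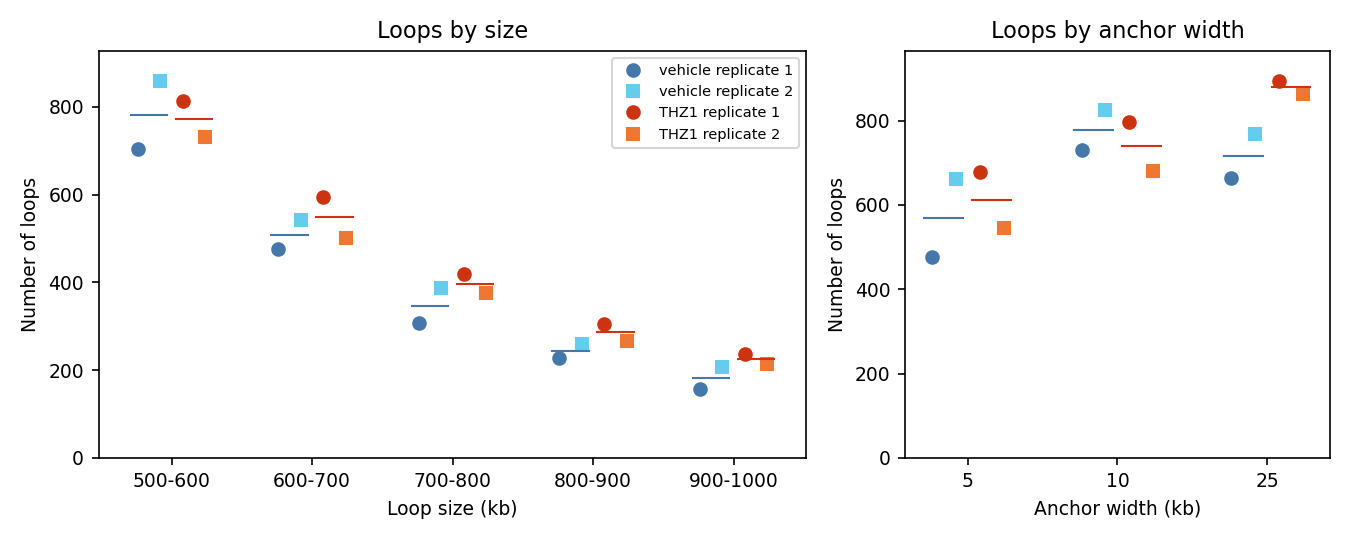
Number of loops over 500 kb to 1 Mb by loop size in kb (left) and by anchor width in kb (right) in each of 4 libraries; points are libraries and horizontal lines are the means of 2. The vehicle and THZ1 points overlap at 500 to 600 kb, whereas at 25 kb anchors both THZ1 points (894 and 864) lie above both vehicle points (664 and 767).

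Loops with narrow anchors were found again in the other library of their condition far more often than loops with wide anchors. Of loops with 5 kb anchors, 91.6% of vehicle replicate 1 and 84.4% of vehicle replicate 2 were found in the partner list, and 87.3% and 90.6% of THZ1 replicates 1 and 2. With 10 kb anchors the shares were 67.4%, 53.2%, 62.4% and 75.2%, and with 25 kb anchors 48.8%, 34.3%, 39.8% and 50.3%. The order of the widths was therefore the same in all 4 libraries. The matching distance was also the same at every width. A 25 kb anchor shifted by its own width was not matched, whereas a 5 or 10 kb anchor so shifted could be. This rule favors narrow anchors in every library, and how much of the order it set was not tested. The Jaccard index, the matched loops over all loops of both lists, was 0.438 between the vehicle libraries and 0.478 between the THZ1 libraries. Pairs from different conditions reached 0.405 to 0.425, close below the vehicle pair. By comparison, loops of 90 kb or less had indices of 0.569 and 0.495 within conditions and 0.370 to 0.441 between them.

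Over all anchor widths together, loops that the partner library also listed stood higher above their surroundings. In vehicle replicate 1 the median log2 of observed over donut expected contacts was 2.77 for 1252 loops found in the partner and 2.14 for 618 that were not. In THZ1 replicate 1 these medians were 2.57 for 1445 loops and 1.86 for 924. The loops not found again had more observed contacts (medians of 24 against 21, and 34 against 24), and 77.2% and 72.0% of them rested on 1 pixel of the contact map, against 56.4% and 51.6%. Since wide anchors were found again less often, the 2 sets differ in anchor width. These values were not compared within a width.

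Of the 4096 distinct positions, 909 were called in all 4 libraries and 1872 in 1 library only. Both THZ1 libraries and neither vehicle library listed 222, and both vehicle libraries and neither THZ1 library listed 136. Since 556 and 412 positions were listed by THZ1 replicate 1 or 2 alone, and 339 and 565 by vehicle replicate 1 or 2 alone, absence from a list does not show that a contact was missing. The positions listed by 1 library alone had 25 kb anchors in 60.9% of cases, against 3.41% of the positions listed in all 4. A merged position kept the narrowest anchors listed for it, and a 25 kb anchor shifted by its own width was not matched to another. Both rules move wide anchors toward the positions of 1 library, by an amount that was not tested.

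Promoters were less common at the anchors after THZ1. A promoter here is the start of a protein-coding gene inside an anchor. At least 1 anchor held a promoter in 38.6% and 40.1% of the vehicle loops and in 33.9% and 33.4% of the THZ1 loops, and the groups did not overlap (exact permutation p = 0.33). The difference lay in loops with a promoter at 1 anchor, which made up 30.1% and 30.6% with vehicle and 24.5% and 25.3% with THZ1. Loops joining promoters at both ends made up 8.50% and 9.59% against 9.37% and 8.14%, with overlap.

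The lower share was seen at narrow anchors. With 5 kb anchors, 34.0% and 30.7% of the vehicle loops and 19.8% and 21.1% of the THZ1 loops held a promoter. With 10 kb anchors the shares were 36.0% and 38.0% against 32.0% and 28.0%, again without overlap. With 25 kb anchors they were 44.7% and 50.6% against 46.2% and 45.4%, and the groups overlapped. When overlap with any part of a gene was counted in place of its start, the difference shrank from -5.74 to -0.60 percentage points. Loops with no protein-coding gene at either anchor made up 16.7% and 16.6% of the vehicle loops and 16.6% and 17.9% of the THZ1 loops.

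The distinct positions showed the same order. A promoter lay at an anchor in 72 of the 136 positions listed by both vehicle libraries alone (52.9%, Wilson interval 44.6 to 61.1). It did so in 71 of the 222 listed by both THZ1 libraries alone (32.0%, 26.2 to 38.4) and in 213 of the 909 listed in all 4 (23.4%, 20.8 to 26.3). At each anchor width the share was higher for vehicle alone than for THZ1 alone: 47.2% of 36 against 25% of 24 positions at 5 kb, 50% of 60 against 20.4% of 103 at 10 kb, and 62.5% of 40 against 46.3% of 95 at 25 kb. The 5 kb sets are small. Positions are not replicates, and no test was made between the sets.

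**Figure D2:**
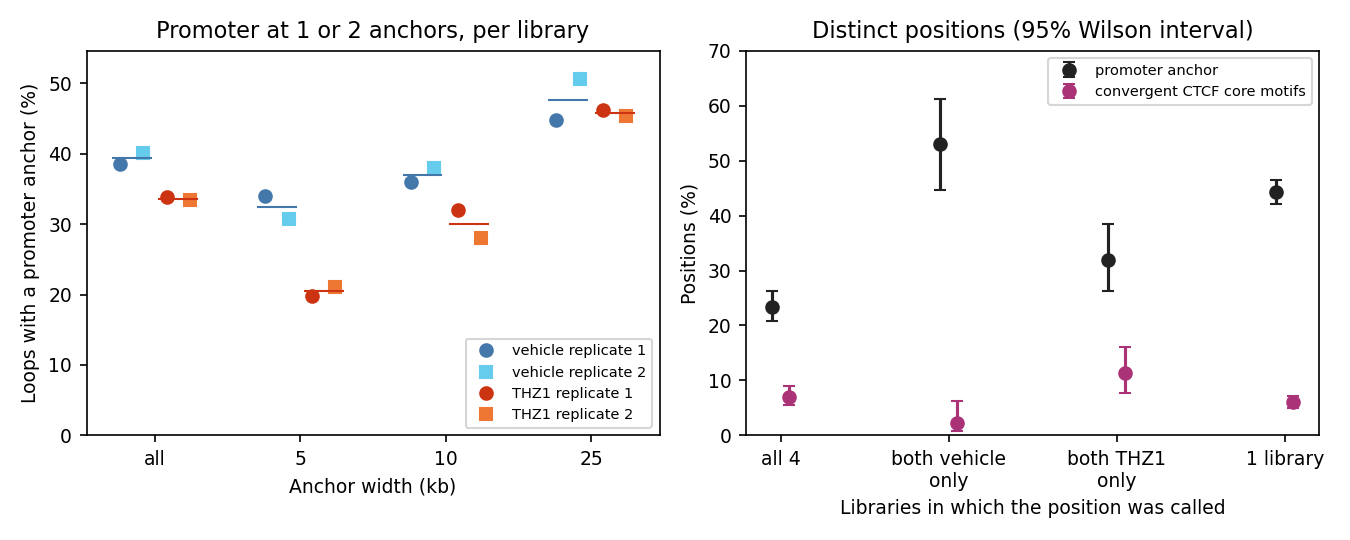
Left, percent of loops with a promoter at 1 or 2 anchors in each library, over all loops and by anchor width in kb; points are libraries and lines are means of 2. Right, percent of distinct positions with a promoter anchor or with convergent CTCF cores by the libraries that listed them, with 95% Wilson intervals; the promoter share is 52.9% for vehicle alone and 32.0% for THZ1 alone, and the convergent share is 2.21% and 11.3%.

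The named positions of each condition show which genes were involved. Among those listed by both vehicle libraries alone, the 6 with the most observed contacts included chr1:218500001-219075000, which started at the promoter of TGFB2, a TGF-beta ligand, and held 58 and 64 contacts, 2.79 and 2.58 times the donut expectation. The position chr13:80250001-80925000 ended at the promoter of SPRY2, an inhibitor of receptor tyrosine kinase signaling, and held 58 contacts in each library. The position chr11:119550001-120100000 joined an exon of NECTIN1, an adhesion molecule gene, with the promoter of OAF and held 66 and 62 contacts. All 3 had 25 kb anchors and stood between 2 and 3 times their surroundings. The position chr6:105875001-106550000 joined the gene PREP with an anchor over ATG5, an autophagy gene, and PRDM1, a transcriptional repressor gene, at 3.28 and 3.63 times the expectation. The remaining ones were chr6:9500001-10250000, with no protein-coding gene at an anchor or in its span, and chr6:705001-1330000, which enclosed FOXQ1, a forkhead factor gene. The FOXQ1 position was listed with 23 contacts at 5 kb anchors in vehicle replicate 1 and 142 contacts at wider anchors in vehicle replicate 2, counts that cannot be set against each other.

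Among positions listed by both THZ1 libraries alone, the strongest in contacts was chr5:71600001-72150000, with 124 and 108 contacts, from the promoters of MRPS27 and PTCD2 to an exon of TNPO1, a nuclear import receptor gene. The position chr10:12225001-13150000 joined the promoters of CDC123 and NUDT5 with those of CCDC3 and OPTN, an autophagy receptor gene, at 89 and 77 contacts. The position chr6:3100001-4025000 joined the promoters of BPHL and PRPF4B, a splicing-associated kinase gene, at 78 contacts in each THZ1 library, 3.40 and 3.56 times the expectation. The chromosome 10 and chromosome 6 positions had promoters at both ends, and the chromosome 5 position at its first anchor. The position chr13:39625001-40200000 ended at the promoter of LHFPL6 with 78 and 74 contacts. The positions chr6:14200001-14900000 (79 and 72 contacts) and chr6:9850001-10450000 (76 and 66) had no gene at their anchors, and the latter enclosed TFAP2A, a transcription factor gene. All 6 had 25 kb anchors, the width at which fewest loops were found again between libraries with the matching distance used.

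CTCF cores that point into the loop were more common at these anchors than in genome windows of the same width. A forward core lay in the first anchor of 24.9% and 24.8% of vehicle loops and 26.6% and 27.9% of THZ1 loops, and a reverse core in 6.68%, 6.88%, 6.50% and 6.94%. In the second anchor the reverse core lay in 25.7%, 24.7%, 27.2% and 28.7%, and the forward core in 5.72%, 7.15%, 6.80% and 7.04%. The cores that point into the loop were thus the common ones at both ends in every library. Of all windows of the genome of the same length, 2.06% held a forward core at 5 kb, 4.02% at 10 kb and 9.54% at 25 kb. With 5 kb anchors, 21.4% and 24.2% of the vehicle loops and 26.4% and 28.7% of the THZ1 loops held the inward core in the first anchor, while 2.02% to 3.57% held the outward core there. No match says only that these letters were not in the anchor.

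Loops with inward cores at both ends, called convergent, made up 7.01% and 6.35% of the vehicle loops and 7.94% and 8.86% of the THZ1 loops, or 131, 143, 188 and 185 loops. The groups did not overlap (exact permutation p = 0.33), and the difference of 1.72 percentage points stands beside a spread of 0.799. Outward cores at both ends were found in 0.642%, 0.533%, 0.760% and 0.622%. Of the distinct positions, 25 of the 222 listed by both THZ1 libraries alone were convergent (11.3%, Wilson interval 7.74 to 16.1), against 3 of the 136 listed by both vehicle libraries alone (2.21%, 0.753 to 6.28) and 64 of the 909 in all 4 (7.04%, 5.55 to 8.89). With 25 kb anchors, which hold more letters, 14 of 95 positions of THZ1 alone and 1 of 40 of vehicle alone were convergent.

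**Figure D3:**
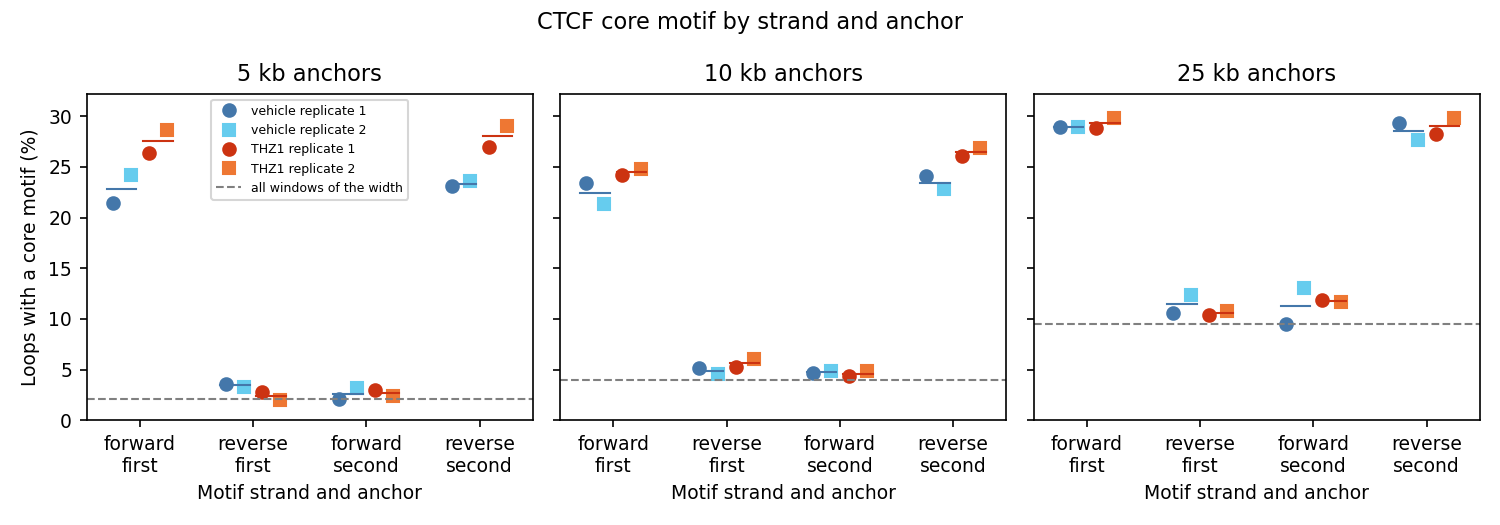
Percent of loops in each library with a CTCF core motif on the forward or reverse strand of the first or second anchor, in panels by anchor width in kb; points are libraries, short lines are means of 2 and the dashed line is the share of all genome windows of that width with a forward core. The inward pairings (forward in the first and reverse in the second anchor) lie above 20% in every panel, and the outward ones lie near the dashed line.

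Few of these loops sat at the corner of an Arrowhead contact domain of the same library. The share was 4.81% and 4.26% with vehicle and 4.52% and 4.69% with THZ1, with overlap. The shorter loops of over 200 to 500 kb had 1.39% and 2.14% against 8.14% and 8.31%. These shares depend on the domains listed for each library, whose numbers and sizes are not given here.

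The spans of these loops held few genes. A median of 2 protein-coding genes started between the anchors in all 4 libraries, with 56 to 61 at most. Per megabase of span this was 4.72 and 5.10 genes with vehicle and 5.04 and 5.15 with THZ1, below the 8.2 to 8.5 of loops over 200 to 500 kb and above the 2.8 to 3.2 of loops over 1 to 10 Mb. Spans without a gene made up 16.5% and 15.9% of the vehicle loops and 13.9% and 13.5% of the THZ1 loops, without overlap (exact permutation p = 0.33). In numbers these were 309 and 359 against 329 and 281, which overlapped, while spans with 5 to 9 genes numbered 244 and 322 against 396 and 329.

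Small loops within these spans were fewer after THZ1. Inside the 909 spans called in all 4 libraries, the vehicle lists had 1433 and 1693 loops of 90 kb or less and the THZ1 lists 801 and 689, a log2 ratio of -1.07 with an SD of 0.23 (exact permutation p = 0.33). Outside them the same kind of loop had a log2 ratio of -0.98, within the spread of the value inside. Spans without any such loop were 31.6% and 27.0% of the 909 after vehicle, against 45.1% and 49.6% after THZ1. The mean per span was lower with THZ1 in 601 of the 909, higher in 32 and equal in 276, of which 211 had none in any library. Among the other 698, both vehicle counts lay above both THZ1 counts in 346 (49.6%) and the reverse held in 1. The backgrounds for these counts, over consecutive windows of 660 kb with such a loop, were 45.0% and 0.46%, so the share in the spans was near that of the genome.

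The lower number of enclosed loops was present at every gene content. Spans without a gene held a mean of 1.70 and 2.15 small loops with vehicle and 0.934 and 0.620 with THZ1, a log2 ratio of -1.31 with an SD of 0.48. Spans with 10 or more genes held 3.16 and 4.19 against 2.25 and 1.94, a log2 ratio of -0.81 with an SD of 0.33. The ratios in between were -1.16, -1.09 and -0.96, and the differences among them lie within the spread. Spans listed by both THZ1 libraries alone also held fewer, 560 and 596 against 324 and 254 (log2 ratio -1.0), as did those listed by both vehicle libraries alone, 283 and 354 against 143 and 141 (log2 ratio -1.17). Counting enclosed loops of any smaller size in the same library, a loop of 500 kb to 1 Mb held a median of 5 and 6 with vehicle and 4 and 3 with THZ1.

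**Figure D4:**
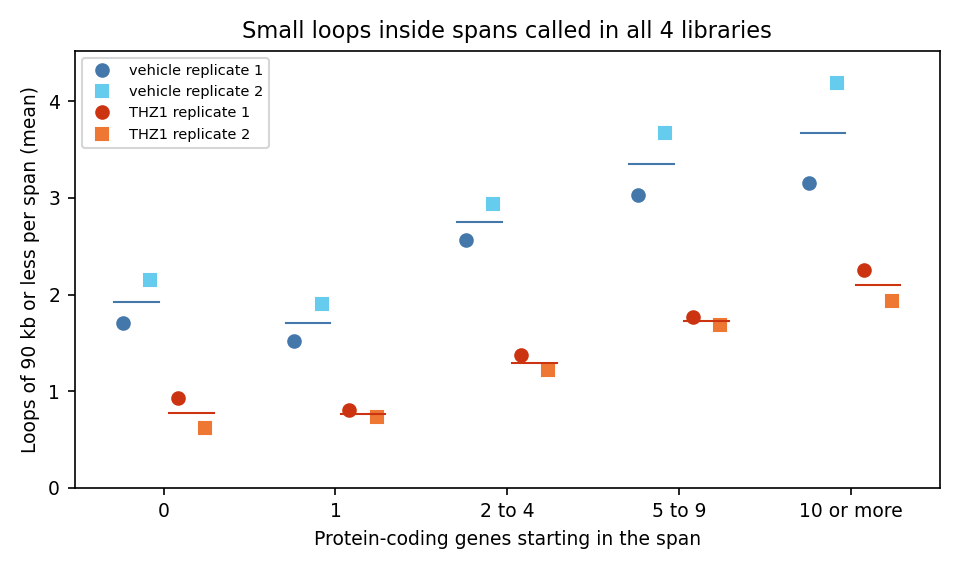
Mean number of loops of 90 kb or less inside each of the 909 spans called in all 4 libraries, by the number of protein-coding genes starting in the span; points are libraries and lines are means of 2. Both THZ1 points lie below both vehicle points at each gene content, from 0.934 and 0.620 against 1.70 and 2.15 in spans without a gene.

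The anchors were shared with smaller loops less often after THZ1. Both anchors also served a smaller loop of the same library in 59.2% and 63.1% of the vehicle loops and in 53.7% and 50% of the THZ1 loops, and neither did in 10.2% and 8.93% against 13.2% and 15.3%. These shares move with the number of smaller loops listed. A larger loop enclosed 55.2% and 62.3% of the vehicle loops and 64.8% and 57.9% of the THZ1 loops, with overlap.

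Loops of 500 kb to 1 Mb stood less far above their donut background after THZ1. Of 2619 loops with identical anchors in all 4 lists and an expectation above 0, 204 had these sizes. Their median log2 of observed over donut expected contacts was 3.38 and 3.48 with vehicle and 3.04 and 2.95 with THZ1, a difference of -0.43. The median observed contacts were 23 and 26 against 29 and 26, while the median donut expectation was 2.13 and 2.41 against 3.42 and 3.39. The groups met at 26 in the observed contacts and did not overlap in the expectation.

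By edgeR's quasi-likelihood test with Benjamini-Hochberg adjustment over all 2619 loops, 36 of the 204 (17.6%) fell in strength with THZ1 at an adjusted p of at most 0.05 and 0 rose, beside a background of 27.5% of all loops called lower and 0.0382% called higher. Without adjustment, 63 had p under 0.05, all lower. The median log2 change of the 204 was -0.36, against -0.41 over all loops tested, so the change at these sizes was not above that of the rest. Nor were these values particular to the class. Loops of over 200 to 500 kb had 19.3% called lower and a median of -0.35, and loops of over 1 to 10 Mb 20.9% and -0.41. The share and the fall were largest at loops of 90 kb or less (39.1% and -0.48). Both THZ1 values lay below both vehicle values in 130 (63.7%), against a background of 68.8%. When the observed counts were tested without the expectation, scaled by TMM, 2 of the 204 were lower and 14 higher (backgrounds 4.38% and 2.82%), and the median was 0.24 against -0.005 over all loops. A fall in strength here is therefore a fall relative to the surrounding contacts. Without vehicle replicate 1, 12 of the 204 were called, and without vehicle replicate 2, THZ1 replicate 1 or THZ1 replicate 2, 0 were called by edgeR, with 40, 49 and 44 at an unadjusted p under 0.05. The replicates varied by less than counting error (median quasi-dispersion 0.82), and only loops called in every list entered the test.

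Of the 36 falls, 35 were among the 147 loops with 5 kb anchors, whose median log2 change was -0.47. Loops with 10 kb anchors had 1 call in 28 and a median of -0.28, and loops with 25 kb anchors had 0 in 29 and a median of -0.17. Promoter anchors made little difference to these counts, with 11 of 60 called and a median of -0.40 against 25 of 144 and -0.35. Convergent loops had 1 call in 19 and a median of -0.25.

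**Figure D5:**
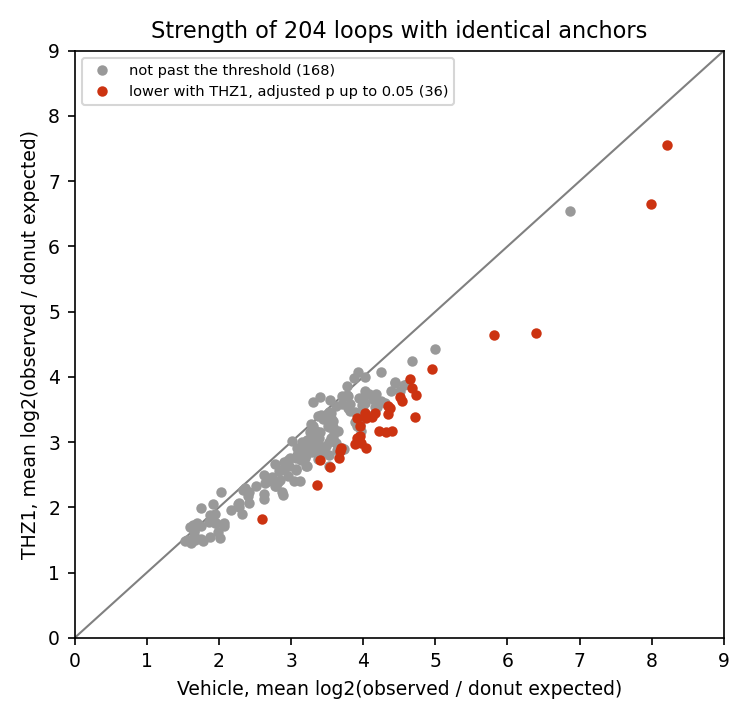
Strength of 204 loops over 500 kb to 1 Mb with identical anchors in all 4 lists, as the mean over 2 libraries of log2(observed over donut expected contacts), vehicle on the horizontal and THZ1 on the vertical axis; each point is a loop and the line marks equality. Most points lie below the line, and the 36 loops past the threshold are all lower with THZ1.

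The named falls below depend on the donut expectation. Of the 10 named loops past the threshold, 1 stayed past it with TMM and no expectation (the ZNF83 to ZNF525 loop), 1 with the horizontal and 1 with the vertical expectation (the chromosome 20 loop in each), and 0 with DESeq2, while the direction held in all of these. The largest fall was at chr20:46520001-47135000, a loop with no protein-coding gene at its anchors or in its span. It held 42 and 35 contacts with vehicle and 28 and 21 with THZ1, or 87.4 and 80.9 against 27.5 and 23.5 times the expectation. The log2 change was -1.71 ± 0.23 (SE, edgeR adjusted p = 0.000649), and the groups did not overlap in the observed counts either. No loop of 90 kb or less lay within it in any library.

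At chr3:11955001-12915000 the span enclosed 11 genes, among them PPARG, a nuclear receptor of fat cell differentiation. The loop held 30 and 22 contacts against 16 and 20, at 329 and 196 against 86.6 and 117 times an expectation of under 0.2 contacts in every library. Its log2 change was -1.33 ± 0.28 (SE, edgeR adjusted p = 0.0041). The test took the expectation as free of error, so this and the other SEs leave out its uncertainty. The change was -0.45 with the vertical expectation (edgeR adjusted p = 0.528) and -2.04 with the horizontal one (edgeR adjusted p = 0.0513). A further alternative, chosen after seeing the data, kept only loops with a donut expectation of at least 1 in all libraries. It left this loop out, and 26 of 184 were called. Of the 10 named loops past the threshold it kept 4, all still past it. It also left out the chromosome 20 and ZNF83 to ZNF525 loops and, of the falls below, those at SOX2, NCAM2 and chr17:21415001-21955000. Inside the span of chr3:11955001-12915000, 3 and 8 small loops were listed after vehicle and 2 and 4 after THZ1.

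Some of the largest falls lay at promoters, although calls were about as frequent with a promoter anchor (11 of 60) as without (25 of 144). The loop chr3:181425001-182405000 started at the promoter of SOX2, a pluripotency factor gene, and held 15 and 22 contacts with vehicle and 15 and 13 with THZ1, or 27.8 and 25.1 against 11.8 and 9.18 times the expectation (log2 change -1.32 ± 0.25, edgeR adjusted p = 0.00506). The loop chr8:127835001-128750000 ended at the promoter of MYC, a growth-promoting transcription factor gene, with 39 and 32 against 28 and 30 contacts, or 20.0 and 13.5 against 7.77 and 7.22 times the expectation (log2 change -1.13 ± 0.24, edgeR adjusted p = 0.00412). The observed counts of the SOX2 loop met at 15, and those of the MYC loop did not overlap between the conditions. The MYC value rested on the choice of surroundings: the log2 change was -0.02 with the horizontal expectation (edgeR adjusted p = 0.981), and -0.28 with TMM and no expectation (edgeR adjusted p = 0.583). For the SOX2 loop the latter setting gave -0.38 (edgeR adjusted p = 0.587). The loop chr19:53190001-53870000, whose motif pair is printed above, joined the promoters of the zinc finger genes ZNF83 and ZNF525 across 19 gene starts, and held 31 and 34 against 21 and 14 contacts (log2 change -1.15 ± 0.26, edgeR adjusted p = 0.00529). Small loops inside the ZNF span numbered 9 and 11 with vehicle and 4 in each THZ1 library.

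The other large falls were at chr8:132255001-132875000, with no gene at its anchors (24.3 and 18.2 against 9.03 and 8.92 times the expectation), at chr21:22535001-23295000, in an intron of the adhesion gene NCAM2 (20.0 and 19.9 against 9.50 and 8.31), and at chr8:124780001-125440000, at the promoter of FAM91A1 (7.52 and 14.0 against 4.66 and 5.58). Their log2 changes were -1.21, -1.16 and -1.07. The ratios did not overlap between the conditions, which the choice of named falls required. The observed counts overlapped at chr8:124780001-125440000 (14 and 26 against 16 and 18). At chr8:132255001-132875000 they met (25 and 23 against 23 and 20), and at chr21:22535001-23295000 they did not overlap (19 and 22 against 15 and 13).

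The loops farthest above their surroundings differed in how they changed. At chr17:21415001-21955000, without a gene at its anchors or in its span, the ratio was 261 and 335 with vehicle and 198 and 177 with THZ1, again on expectations under 0.2, with a log2 change of -0.67 ± 0.23 (SE, edgeR adjusted p = 0.0374). At chr8:125440001-126445000, which ended at the promoter of TRIB1, a pseudokinase gene, and enclosed SQLE, an enzyme gene of cholesterol synthesis, the vehicle counts of 77 and 100 overlapped the THZ1 counts of 93 and 77. The ratios there were 117 and 116 against 97.7 and 89.6, with a log2 change of -0.31 ± 0.16 (SE, edgeR adjusted p = 0.149). At the GALNT17 loop, chr7:70320001-71205000, whose sites are printed above, 17 and 18 contacts stood against 23 and 19, a log2 change of -0.55 ± 0.26 relative to the expectation (SE, edgeR adjusted p = 0.189). The TRIB1 and GALNT17 loops did not pass the threshold, although their ratios did not overlap between the conditions.

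The spans richest in genes differed in their change. The loop chr12:52540001-53270000 enclosed 25 genes, all keratins of the type II cluster from KRT80 to KRT78, which build the intermediate filaments of epithelia. It held 28 contacts in each vehicle library and 19 and 23 in the THZ1 libraries, at 23.1 and 15.0 against 8.46 and 9.62 times the expectation (log2 change -1.0 ± 0.26, edgeR adjusted p = 0.011). The loop chr6:30450001-31060000 began at the promoter of HLA-E, a nonclassical MHC class I gene, enclosed 22 genes, and held 18 and 27 against 32 and 35 contacts. Its ratios of 3.21 and 4.67 against 3.48 and 4.03 overlapped (log2 change -0.08 ± 0.25, edgeR adjusted p = 0.847), while its small loops numbered 11 in each vehicle library and 6 in each THZ1 library. The gene-free loop chr5:57075001-57760000, at the promoter of PLK2, a polo-like kinase gene, held 39 and 41 against 56 and 55 contacts and had a log2 change of -0.18 ± 0.19 (SE, edgeR adjusted p = 0.521).

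Genes of TNBC and invasion were checked at the anchors as a list, chosen with earlier results of these data known. Of its 25 genes, 5 had a promoter at a loop of these sizes called in all 4 libraries, namely MYC, CCND1, ZEB1, SNAI2 and SOX4, against 1.24% of all 20090 protein-coding genes. In single libraries, 8, 8, 8 and 9 of the 25 did, against 4.50% to 5.79% of all genes. Of 18 AP-1 and YAP-TEAD genes, 1 did (JUN), and of 11 cohesin and CTCF genes, 3 did (STAG1, PDS5A and PDS5B). None of 8 condensin genes and none of 9 genes of CDK7 and other transcriptional kinases did. Among condensin genes, SMC2 and NCAPG had a promoter at such a loop in some lists, 2 genes in the list of vehicle replicate 2, 1 in that of THZ1 replicate 1 and 0 elsewhere.

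MYC had 4 such loops. Beside the upstream loop that fell, 3 loops ran downstream from its promoter to chr8:129335000, chr8:129570000 and chr8:129680000. The shortest of these held 16 and 17 contacts with vehicle and 25 and 19 with THZ1, at 6.74 and 7.59 against 6.52 and 6.21 times the expectation. The middle loop was listed at 6.43 and 13.0 against 3.75 and 2.74 times, and the longest at 10.3 and 6.25 against 7.58 and 3.85 times. The ratios of the shortest loop did not overlap between the conditions. In THZ1 replicate 2 the donut expectation was 25.5 contacts at the middle and 7.27 at the longest loop. In the other lists it was 2.84 to 6.93 and 2.40 to 2.90. Neither the counts nor the ratios of the middle and longest loops can therefore be set against each other. The anchors of these 3 loops were not identical in all lists, and they were not tested.

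The loop chr11:68865001-69460000, from the gene TPCN2 to the promoter of CCND1, the cyclin D1 gene of the cell cycle, was listed with 33 and 38 contacts with vehicle and 50 and 67 with THZ1. Its ratios were 9.77 and 11.4 against 11.2 and 14.8, a log2 change of 0.30 ± 0.21 (SE, edgeR adjusted p = 0.281). The counts did not overlap between the conditions, but the ratios did. With TMM scaling and no expectation, the setting that also ended most of the named falls, its log2 change was 0.73 (edgeR adjusted p = 0.019).

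Genes of the cohesin regulators PDS5A and PDS5B each lay at a loop listed in all 4 libraries. The PDS5B loop, chr13:33160001-34120000, held 16 and 14 against 12 and 16 contacts (log2 change -0.65 ± 0.29, edgeR adjusted p = 0.17), and the PDS5A loop, chr4:39470001-39980000, held 25 and 33 against 26 and 37 (log2 change -0.36 ± 0.26, edgeR adjusted p = 0.30). The SOX4 loop, chr6:21000001-21600000, at the promoter of a SOX-family transcription factor gene, held 44 and 40 against 70 and 54 contacts (log2 change -0.16 ± 0.20, edgeR adjusted p = 0.548). None of these 3 passed the threshold. The loops at STAG1, a cohesin subunit gene, at JUN, an AP-1 gene, and at ZEB1 and SNAI2, genes of the epithelial-mesenchymal transition, had anchors that differed between lists and were not tested. The STAG1 loop, chr3:135785001-136475000, was listed at 12.9 and 9.08 times the expectation with vehicle and 9.57 and 8.02 with THZ1, and the longer SNAI2 loop, chr8:49230001-49835000, at 17.4 and 18.6 against 8.89 and 13.7.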

How the data were processed

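The 4 Arima-HiC libraries were made from MDA-MB-231 cells, 2 after 48 h in DMSO and 2 after 48 h in 75 nM THZ1. The authors processed the reads with Juicer 1.6 on hg19, and the deposited lists name juicer_tools 1.19.02. HiCCUPS settings are not given in the sources used here. Per the file headers, each deposited loop has a raw count of observed contacts at its peak pixel. The authors' expected values are a HiCCUPS signal on the scale of that count, from 4 neighborhoods (donut, bottom-left, horizontal, vertical). The authors' FDR columns hold a q-value for each. The authors' deposited Arrowhead domains gave positions only, and the authors' tables of condition-unique loops were not used here.

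Loop size was the distance between anchor starts. The members, gene lists and rules for named loops were chosen with earlier results of these data known. Loops were matched when both anchor midpoints lay within 20 kb. Genes were those of GENCODE 44 on GRCh37, and 0 of 9638 anchors fell in an unsequenced stretch or past a chromosome end. The motif was loosened from a stricter core after values of the stricter one were seen. Named loops were up to 8 with the largest called change in each direction whose ratios did not overlap between the conditions. They also included the 6 highest in observed over expected contacts, and the 3 with most and the 3 with fewest genes in the span. The 6 per condition with the most contacts among positions of 1 condition were named too, as were loops in all 4 lists at a listed gene. The sites printed were chosen after values were seen, and sequences of 1 chromosome were left out.

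Library values were compared by exact two-sided permutation over 6 splits. Strength was tested with edgeR 4.0.16 (quasi-likelihood test, log donut expectation as offset, Benjamini-Hochberg at 0.05) in R 4.3.3, with DESeq2 1.42.0 as an alternative. Python 3.11.15, numpy 2.4.6, pandas 2.3.3, scipy 1.17.1 and matplotlib 3.10.9 were used, and matching and the strength test were tested on simulated data. The alternatives were other anchor widths, FDR limits, distances, definitions of promoter, gene, motif and expectation, and leaving out each library.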

Additional observations from a re-analysis of the deposited data

How the results depend on the processing

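The number of loops, the enclosed small loops, the convergent share and the domain-corner share moved by no more than the spread between libraries under every alternative run for them. The difference in the share of all loops was 4.66 percentage points, and 3.95 with 25 kb anchors only and 3.41 with 5 or 10 kb anchors only. The difference in loops with a promoter anchor was -6.99 points with 10 kb anchors only, -4.51 with starts within 10 kb of the anchor and -0.596 with overlap of gene bodies, against -5.74. The difference in spans without a gene (-2.56 points) was -1.10 with 10 kb anchors only and 0.0105 when all annotated genes were counted, since few spans then lack a gene. The mean Jaccard index within conditions was above that between conditions by 0.0418, by 0.0280 with identical anchors, by 0.0302 with 25 kb anchors only, and by 0.0137 to 0.0635 with 1 library left out.

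Of the 204 loops, 36 were called in strength. The number was 16 with TMM and no expectation (14 of them higher, and 2 shared with the 36), 2 with the horizontal and 3 with the vertical expectation, 0 with DESeq2 (17 at an unadjusted p under 0.05) and 0 to 12 with 1 library left out. The median log2 change of the 204, -0.36, turned to 0.24 with TMM and no expectation; which of these changes turned it was not tested. With a replicate block, 39 were called, including all 36. Libraries with the same number did not deviate together (correlation 0.017), so the numbers were not used to pair them. The difference in median strength (-0.43) was -0.286 over all loops of each list and -0.24 over those matched within 20 kb. Of 111 alternatives for the 10 named loops past the threshold, 76 lost the call and 0 changed sign. Among the 8 named loops not past it, 2 alternatives gained a call and 9 changed the sign, 5 of these with TMM and no expectation. No depth could be tied to a library, and counts of 10 to 142 contacts per loop limit each loop's value.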
